A study of Mus musculus with 12 samples.

Results

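Claudins and cadherins are the 2 families of adhesion proteins that join neighbouring cells at tight junctions and adherens junctions, and their transcripts were followed here through the growth of the upper jaw primordium of the mouse embryo. All genes whose mouse symbol is Cldn or Cdh followed by digits were taken, leaving out Cldn5, Cdh1, Cdh5 and Cdh19. This gave 42 genes of the 53801 listed, namely 22 claudins and 20 cadherins. The cadherins comprise 4 of type I (Cdh2, Cdh3, Cdh4 and Cdh15) and 11 of type II (Cdh6 to Cdh12, Cdh18, Cdh20, Cdh22 and Cdh24). The other 5 are members of the wider cadherin superfamily (Cdh13, Cdh16, Cdh17, Cdh23 and Cdh26). The name classical cadherin therefore covers 15 of the 20.

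Bulk poly(A) RNA-seq was made from the maxillary prominence of wild-type C57BL/6 embryos at embryonic days 10.5, 11.5, 12.5 and 14.5 (E10.5 to E14.5), with 3 libraries per stage and no treatment. The labels tie tissue from 7 littermates to an RNA sample or a stage without saying which, they do not say that the libraries of a stage came from separate litters, and p-values therefore measure the spread between these libraries. The E14.5 libraries carry their own protocol text, and the title of the first of them names 2 parts, used here as 1 library. In every comparison with E14.5, any effect of a difference in protocol cannot be told apart from that of stage. The comparisons follow the series of stages: each stage against the one before, and the whole interval.

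Claudins are multi-pass membrane proteins that form the sealing strands and the ion-selective pores of epithelial tight junctions, and the set of claudins an epithelium makes decides how leaky it is. Cadherins are calcium-dependent receptors: type I and type II members bind the same or a like cadherin on the next cell and hold the actin cytoskeleton through beta-catenin, plakoglobin and alpha-catenin. In the facial prominences a thin surface epithelium, which makes most claudins, covers a mesenchyme of neural crest origin that makes cadherins such as Cdh2 and Cdh11.

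Library depth was 28.3e6 to 33.9e6 counts in genes, and levels are given as CPM (counts per 1e6 of these), in the order of replicates 1, 2 and 3. Fold changes are log2 values from an edgeR quasi-likelihood model with TMM scaling, and a gene is said to have risen or fallen where its p, adjusted by Benjamini-Hochberg over all 18365 genes tested, was under 0.05. Scaling matters here, since TMM factors were 0.852 to 0.955 at E10.5 and 1.11 to 1.14 at E14.5. Plain library totals in place of TMM shifted the median of all genes on the log2 scale by 0.22 for E12.5 against E11.5 and 0.32 for E14.5 against E10.5, so CPM values at later stages sit higher than the fitted changes. Alignments that fell outside annotated genes made up 1.92% to 4.88% of a library at E10.5 and 2.16% to 2.42% at E11.5. Later libraries had 5.03% to 5.43% (E12.5) and 5.78% to 6.21% (E14.5). No library of the 2 early stages reached the lowest of E12.5, and a fit with this share as a covariate is given with the E12.5 step. In bulk tissue fewer cells of a type and less RNA per cell cannot be told apart.

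The 4 claudins followed below for their place at E14.5 are shown by the sequence before a start site of each, from RefSeq promoter windows of GRCm38.p6, 5′ to 3′ on the gene's own strand. Cldn1 rose at that stage, Cldn6 and Cldn7 fell, and Cldn4 was the leading claudin per length. Capitals mark the letters CACCTG (the E-box that Snail and Zeb repressors recognise) and GGGCGG (the GC box of Sp factors), each searched on both strands. The Cldn6 stretch ends at its annotated GENCODE start and is shorter for that reason.
Cldn1, chr16:26371842-26372089, minus strand: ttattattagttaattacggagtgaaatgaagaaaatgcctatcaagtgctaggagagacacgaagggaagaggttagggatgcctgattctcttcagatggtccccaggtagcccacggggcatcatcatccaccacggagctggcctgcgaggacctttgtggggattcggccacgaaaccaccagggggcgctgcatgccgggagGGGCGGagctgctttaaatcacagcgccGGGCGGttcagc
Cldn4, chr5:134946935-134947184, minus strand: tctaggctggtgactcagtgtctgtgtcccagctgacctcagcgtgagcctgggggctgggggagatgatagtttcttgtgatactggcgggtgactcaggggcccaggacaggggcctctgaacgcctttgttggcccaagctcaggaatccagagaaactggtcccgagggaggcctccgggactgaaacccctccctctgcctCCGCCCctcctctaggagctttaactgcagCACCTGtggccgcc
Cldn6, chr17:23679115-23679248, plus strand: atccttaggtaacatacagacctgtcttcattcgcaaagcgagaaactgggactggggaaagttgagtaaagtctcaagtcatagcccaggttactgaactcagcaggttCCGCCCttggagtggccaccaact
Cldn7, chr11:69964529-69964778, plus strand: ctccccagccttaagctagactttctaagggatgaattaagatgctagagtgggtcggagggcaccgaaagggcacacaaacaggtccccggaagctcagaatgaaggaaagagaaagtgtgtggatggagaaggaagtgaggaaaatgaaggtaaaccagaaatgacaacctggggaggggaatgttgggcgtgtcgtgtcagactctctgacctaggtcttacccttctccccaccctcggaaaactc

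Over the 250 bases before the RefSeq start used for each gene, the Cldn4 window held CACCTG 14 bases upstream and the Cldn6 window held it 93 bases upstream, in a stretch not printed. No CACCTG was found in the Cldn1 window or in the Cldn7 window shown. GGGCGG was present at 42 and 14 bases upstream in Cldn1, at 44 in Cldn4 and at 140 and 8 in Cldn6, the last again in the stretch not printed, and no match was found in the Cldn7 window shown. The table holds another Cldn7 promoter, which has CACCTG at 97 and 57 bases and GGGCGG at 6 bases upstream of its own start. CACCTG was in 17.2% of all 32851 promoters of the table and in 6 of the 41 promoters of members. GGGCGG was in 32.7% of all and in 16 of the 41. The promoters cover 31 of the 42 members, and a match is a description of the letters only.

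Of the 42 members, 32 passed the filter on low counts, 13 claudins and 19 cadherins. Because that filter keeps a low gene through the stage where it is high, the counts of changed members describe these 32 and are no test of the families. At E11.5 against E10.5 most of the members that rose were cadherins. In all 12 members rose and 4 fell, where 12.2% of all genes rose and 12.9% fell. Those that rose were 10 cadherins and the claudins Cldn13 and Cldn23, and those that fell were the claudins Cldn2, Cldn6, Cldn10 and Cldn12.

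At E12.5 against E11.5 18 members rose and 2 fell, against 27.1% and 22.2% of all genes. The 18 were 7 claudins (Cldn1, Cldn2, Cldn3, Cldn8, Cldn9, Cldn10 and Cldn11) and 11 cadherins, and Cldn13 and Cdh6 fell. With a covariate for each library's share of alignments outside genes, only Cldn1 (edgeR adjusted p = 0.0488) and Cdh13 (edgeR adjusted p = 0.0136) passed at this step, both higher, and 0 members fell. At E14.5 against E12.5 the called claudins and cadherins went mostly opposite ways, as they had at E11.5 against E10.5. Of the 13 claudins tested 9 fell and 1, Cldn1, rose, while of the 19 cadherins 7 rose and 3 fell. In all 8 members rose and 12 fell at this step, where 23.0% and 24.0% of all genes did.

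Over the whole interval, E14.5 against E10.5, 15 members rose and 6 fell, against 36.6% and 33.8% of all genes. The median log2 fold change of the claudins tested was -0.23, 0.64 and -1.02 at the 3 steps in order and -0.40 over the interval. That of the cadherins was 0.61, 1.16 and 0.25, and 2.15 over the interval, where that over all genes was -0.04, 0.06 and -0.01, and 0.06. Tested for any change over the 4 stages jointly, 29 of the 32 members passed, and 81.6% of all genes. The 3 not called were Cldn4, Cdh2 and Cdh24.

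**Figure D1:**
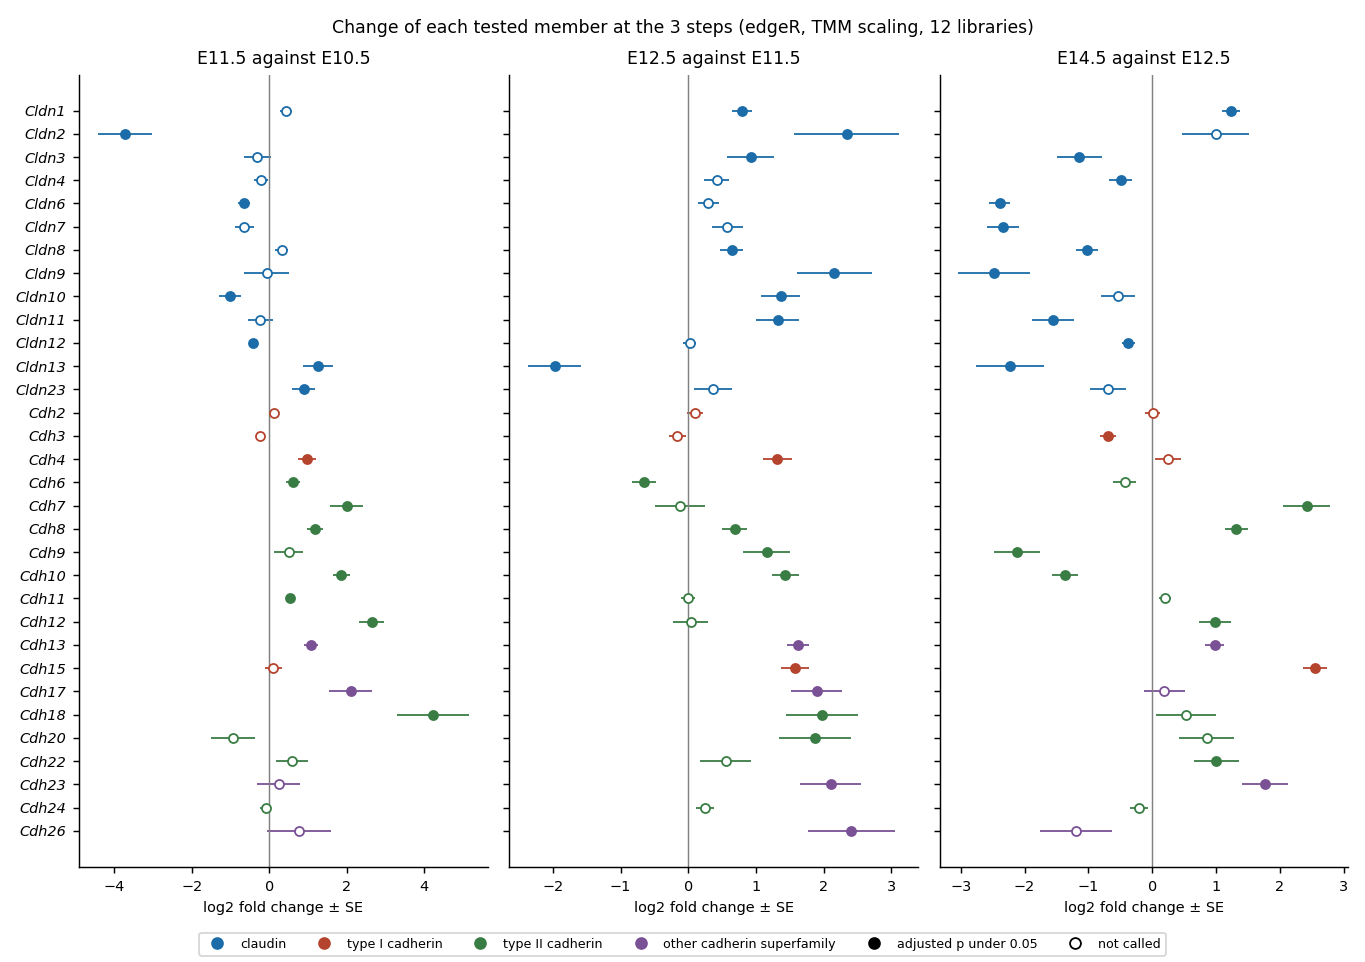
Log2 fold change with its standard error for each of the 32 members tested, at E11.5 against E10.5, E12.5 against E11.5 and E14.5 against E12.5, coloured by class and filled where the adjusted p of the edgeR quasi-likelihood test was under 0.05. In the right panel 9 filled claudins lie left of 0 and only Cldn1 among the filled claudins lies right of it, while 7 filled cadherins lie right of 0.

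Cldn6 is a claudin of early embryonic epithelium and was the most abundant claudin per exon length up to E12.5. Cldn6 had 87.9, 76.3 and 89.3 CPM at E10.5, 55.9, 48.8 and 59.8 CPM at E11.5, 56.7, 99.5 and 78.5 CPM at E12.5, and 15.0, 14.5 and 17.6 CPM at E14.5. The E14.5 libraries lay far below all others, and the E11.5 libraries below those of E10.5, without overlap. Cldn6 fell by 0.66 ± 0.153 (SE) on the log2 scale at E11.5 against E10.5 (edgeR adjusted p = 0.00685). It fell by 2.39 ± 0.164 at E14.5 against E12.5 (edgeR adjusted p = 2.57e-07), a fold of 0.191. Between those steps the log2 fold change for E12.5 against E11.5 was 0.30 (edgeR adjusted p = 0.121), but 0.51 with library totals in place of TMM (edgeR adjusted p = 0.0192).

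Cldn7, a claudin found along the lateral membrane as well as in tight junctions, had the same shape at a lower level. Cldn7 had 18.2, 15.8 and 21.7 CPM at E10.5, 12.9, 9.06 and 14.4 CPM at E11.5, 12.8, 28.5 and 22.0 CPM at E12.5, and 3.96, 4.03 and 5.19 CPM at E14.5. All 3 E14.5 libraries were below every earlier one. The fall at E14.5 against E12.5 was -2.33 ± 0.254 on the log2 scale (SE, edgeR adjusted p = 1.12e-05). At E11.5 against E10.5 its change of -0.64 had an edgeR adjusted p of 0.0645, and at E12.5 against E11.5 its change of 0.58 had one of 0.0562. With library totals in place of TMM the E12.5 change was 0.80 and passed (edgeR adjusted p = 0.0187).

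Cldn1, the claudin that the barrier of the epidermis depends on, took the opposite course. Cldn1 had 8.19, 7.71 and 7.78 CPM at E10.5, 11.1, 11.2 and 10.3 CPM at E11.5, 23.3, 18.2 and 23.9 CPM at E12.5, and 42.2, 64.3 and 55.7 CPM at E14.5. No library of a stage overlapped with those of the stage before. Cldn1 rose at E12.5 against E11.5 by 0.79 ± 0.147 (SE, edgeR adjusted p = 8.70e-04) and at E14.5 against E12.5 by 1.24 ± 0.143 (SE, edgeR adjusted p = 1.80e-05). Its E11.5 change of 0.43 did not pass (edgeR adjusted p = 0.0566). Over the interval the fold was 5.47, the only claudin rise among those tested.

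The summed level of surface epithelium markers was not constant in these libraries. The 12 markers summed to 1531 to 2152 CPM at E14.5 and 751 to 1411 CPM at E12.5, and genes within the list went different ways. Krt5, a keratin of basal cells in stratified epithelium, had 481, 725 and 581 CPM at E14.5 and 39.9, 88.6 and 81.7 CPM at E12.5, while Krt8, a keratin of simple epithelium, had 22.6, 18.3 and 28.3 CPM at E14.5 and 66.8, 136.7 and 88.3 CPM at E12.5. Of the 12 markers 4 rose and 5 fell at that step, with a median log2 fold change of -0.18. Epcam had 54.6, 70.1 and 67.7 CPM at E14.5 and 102, 198 and 149 CPM at E12.5. The markers of suprabasal cells and periderm summed to 742 to 1395 CPM at E14.5 and 185 to 349 CPM at E12.5, with 10 of 12 risen and none fallen. The part of epithelial amount or makeup in the claudin changes was not tested.

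Cldn4 seals tight junctions and, with Cldn3, binds the Clostridium perfringens enterotoxin. Cldn4 had 38.8, 28.5 and 39.3 CPM at E10.5, 33.1, 25.8 and 34.8 CPM at E11.5, 35.1, 61.8 and 48.5 CPM at E12.5, and 30.7, 40.3 and 37.6 CPM at E14.5. The E12.5 libraries all lay above those of E11.5, and the other stages overlapped with each other. Cldn4 fell at E14.5 against E12.5 by 0.49 ± 0.182 on the log2 scale (SE, edgeR adjusted p = 0.0391). That call rests on single libraries: without E12.5 replicate 2 the change was -0.27 (edgeR adjusted p = 0.210), without E12.5 replicate 3 the adjusted p was 0.0555, and without E14.5 replicates 1 and 3 in turn it was 0.155 and 0.0833. With library totals the fall did not pass (-0.42, edgeR adjusted p = 0.0918), and the E12.5 rise did (0.63, edgeR adjusted p = 0.0160).

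Cldn3 had 7.22, 5.42 and 6.69 CPM at E10.5, 4.53, 5.20 and 6.26 CPM at E11.5, 4.38, 18.2 and 12.8 CPM at E12.5, and 5.20, 6.04 and 5.57 CPM at E14.5. E12.5 replicate 1 was the lowest of the 12 libraries and replicates 2 and 3 were the highest. The log2 fold change was 0.92 ± 0.347 at E12.5 against E11.5 (SE, edgeR adjusted p = 0.0416) and -1.14 ± 0.348 at E14.5 against E12.5 (SE, edgeR adjusted p = 0.0161). Without E12.5 replicate 2 these values were 0.42 (edgeR adjusted p = 0.286) and -0.65 (edgeR adjusted p = 0.107). The E14.5 fall was also lost without E14.5 replicate 1 (edgeR adjusted p = 0.0565) or replicate 3 (edgeR adjusted p = 0.0508). The E12.5 rise was also lost on leaving out each of 8 other libraries in turn, and both calls were lost with limma-voom (adjusted p 0.146 and 0.0646). The Cldn3 gene overlaps Wbscr25 on the other strand, and the library kit does not mark strand.

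Cldn8, which works with Cldn4 in the chloride-permeable junctions of the kidney collecting duct, had 5.63, 5.38 and 7.31 CPM at E10.5, 7.72, 7.66 and 8.01 CPM at E11.5, 10.1, 17.4 and 14.9 CPM at E12.5, and 6.80, 7.74 and 7.48 CPM at E14.5. Its E12.5 libraries stood above all others. Cldn8 rose at E12.5 against E11.5 by 0.64 ± 0.168 (SE, edgeR adjusted p = 0.00703) and fell at E14.5 against E12.5 by 1.02 ± 0.170 (SE, edgeR adjusted p = 3.20e-04).

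Cldn9, known from the sealed epithelium of the inner ear, had 1.03, 1.35 and 1.07 CPM at E10.5, 0.657, 1.34 and 1.40 CPM at E11.5, 1.34, 10.6 and 5.74 CPM at E12.5, and 0.694, 1.20 and 1.41 CPM at E14.5. E12.5 replicates 2 and 3 stood apart, and replicate 1 lay within the range of the other stages. Cldn9 rose at E12.5 by 2.15 ± 0.554 (SE, edgeR adjusted p = 0.00631) and fell at E14.5 by 2.48 ± 0.560 (SE, edgeR adjusted p = 0.00272). The gene ends 137 bases from the end of Cldn6 on chromosome 17, both genes running towards the gap.

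Cldn11, the claudin of oligodendrocyte and Sertoli cell tight junctions, had 5.63, 2.96 and 12.0 CPM at E10.5, 6.54, 5.71 and 5.36 CPM at E11.5, 15.4, 15.1 and 20.7 CPM at E12.5, and 5.34, 5.37 and 7.57 CPM at E14.5. All 3 E12.5 libraries were above the rest. Cldn11 rose at E12.5 against E11.5 by 1.32 ± 0.324 (SE, edgeR adjusted p = 0.00489) and fell at E14.5 against E12.5 by 1.55 ± 0.326 (SE, edgeR adjusted p = 0.00166). Within E12.5 it was lowest in replicate 2. With a covariate for alignments outside genes, the change at E12.5 against E11.5 was -0.25 (edgeR adjusted p = 0.751).

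Cldn12, which lacks the PDZ-binding end of other claudins, had 48.1, 54.3 and 57.9 CPM at E10.5, 40.2, 41.3 and 40.5 CPM at E11.5, 54.1, 43.3 and 45.7 CPM at E12.5, and 39.1, 38.3 and 39.4 CPM at E14.5. E14.5 lay below every other library, and E11.5 below E10.5. It fell at E11.5 by 0.43 ± 0.10 (SE, edgeR adjusted p = 0.00719) and at E14.5 against E12.5 by 0.37 ± 0.101 (SE, edgeR adjusted p = 0.00835).

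Cldn23 had 2.38, 2.39 and 2.73 CPM at E10.5, 4.99, 4.21 and 5.08 CPM at E11.5, 4.09, 10.1 and 7.12 CPM at E12.5, and 3.09, 5.65 and 5.16 CPM at E14.5. Every E11.5 library was above every E10.5 library. The rise at E11.5, 0.90 ± 0.295 (SE, edgeR adjusted p = 0.0399), was lost on leaving out any 1 of the 6 libraries compared (edgeR adjusted p 0.0630 to 0.101) and with limma-voom (adjusted p = 0.0742).

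Cldn10, whose isoforms make cation and anion pores in kidney and glands, had 1.75, 2.61 and 2.13 CPM at E10.5, 1.22, 1.44 and 0.654 CPM at E11.5, 2.91, 3.62 and 3.33 CPM at E12.5, and 2.01, 2.30 and 2.83 CPM at E14.5. The E11.5 libraries were the lowest and the E12.5 libraries the highest. Cldn10 fell at E11.5 by 1.02 ± 0.285 (SE, edgeR adjusted p = 0.0189), a call lost on leaving out E10.5 replicate 2 (adjusted p = 0.0797) or, separately, E11.5 replicate 3 (adjusted p = 0.0732). It rose at E12.5 by 1.36 ± 0.282 (SE, edgeR adjusted p = 0.00169).

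Cldn13, a claudin gene that rodents have and humans lack, peaked at E11.5 with 1.81, 1.95 and 1.43 CPM, against 0.719, 0.661 and 0.722 CPM at E10.5. Later libraries had 0.767, 0.224 and 0.527 CPM at E12.5 and 0.208, 0.0707 and 0.0589 CPM at E14.5, and no stage overlapped with the next. Cldn13 fell at both later steps, by 1.97 ± 0.393 (SE, edgeR adjusted p = 0.00132) and by 2.23 ± 0.529 (SE, edgeR adjusted p = 0.00373). Its rise at E11.5, 1.26 (edgeR adjusted p = 0.0262), was lost without any of the 3 E10.5 libraries or E11.5 replicates 1 and 2 (edgeR adjusted p 0.0570 to 0.0898).

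Cldn2, the cation pore of leaky epithelia, stayed under 1 CPM throughout. It was seen with 4 counts in 1 E11.5 library and with none in the other 2, against 14, 24 and 19 counts at E10.5. The fall at E11.5 passed (edgeR adjusted p = 0.00163), and the rise at E12.5 (edgeR adjusted p = 0.0237) was lost without E11.5 replicate 2 or 3 or without E12.5 replicate 3 (edgeR adjusted p 0.0719 to 0.0853).

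**Figure D2:**
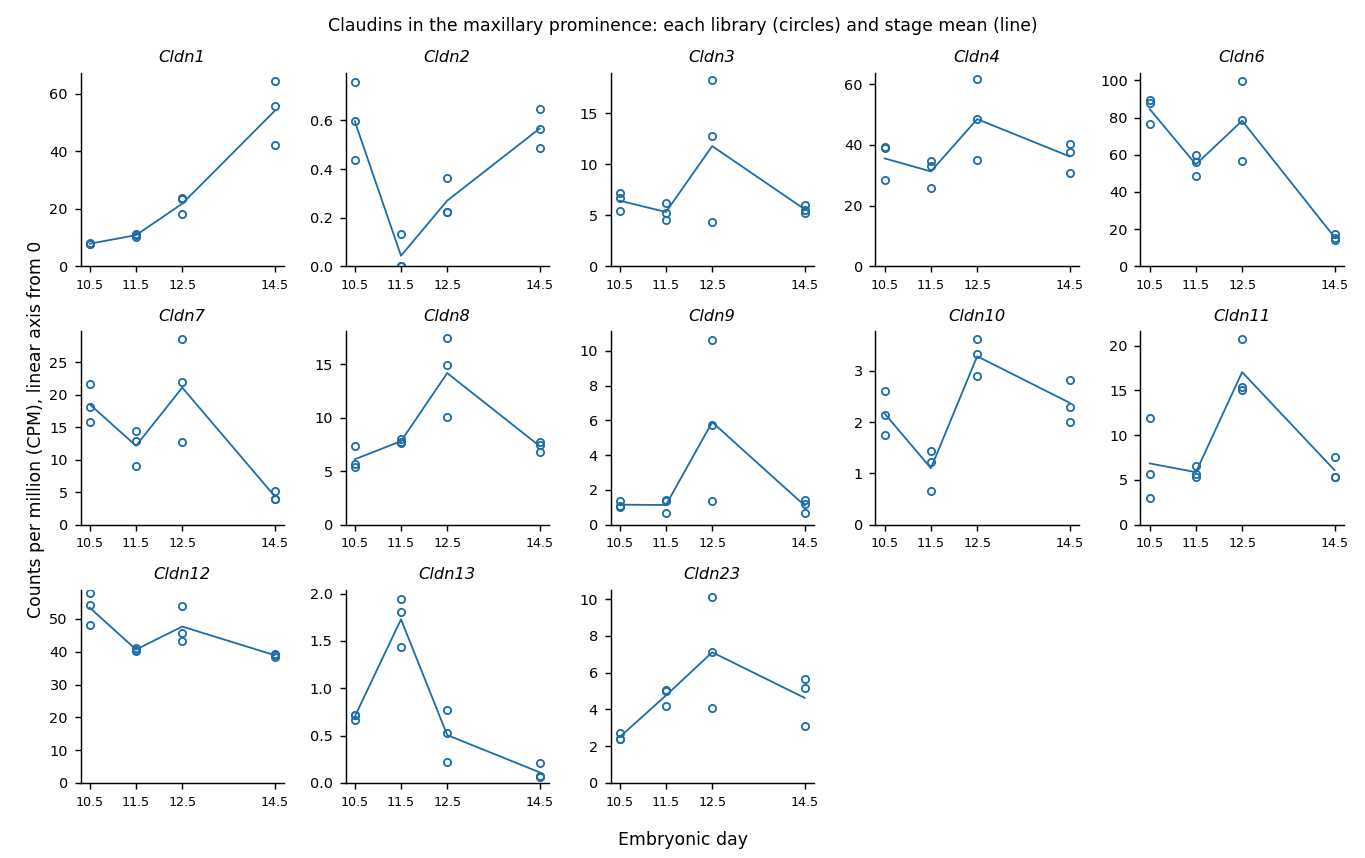
CPM in each of the 12 libraries (circles) and stage mean (line) for the 13 claudins tested, against embryonic day on linear axes from 0. Cldn1 climbs to 42.2, 64.3 and 55.7 CPM at E14.5 while Cldn6 drops to 15.0, 14.5 and 17.6 CPM, and the E12.5 libraries of Cldn3, Cldn7 and Cldn9 are widely spread.

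The 3 E12.5 libraries differed in a common order in part of the claudins. Of the 13 claudins tested 8 were highest in replicate 2 and lowest in replicate 1 there: Cldn3, Cldn4, Cldn6, Cldn7, Cldn8, Cldn9, Cldn10 and Cldn23. The share of all genes with that order was not computed, so the count does not set claudins apart from other genes. The ratio of the highest to the lowest E12.5 library was 7.91 for Cldn9, 4.17 for Cldn3 and 2.23 for Cldn7. Of the 19 cadherins 5 showed that order, and Cdh26, with a ratio of 4.44, was among them. Cldn1, Cldn11, Cldn12 and Cldn13 were lowest in replicate 2, as were Cdh6, Cdh10 and Cdh11.

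Summed markers of epithelium, of brain and nose and of skeletal muscle were in the same order. Single genes did not all follow it, and the muscle marker Myod1 was not highest in replicate 2. Epcam, Lhx2 and Otx2 were picked after their values were seen. At E12.5 Epcam had 102, 198 and 149 CPM and the 12 surface epithelium markers summed to 751, 1411 and 1128 CPM. Lhx2, a gene of forebrain and olfactory epithelium, had 0.862, 41.6 and 26.3 CPM, and Otx2, of forebrain and midbrain, had 3.19, 29.7 and 18.4 CPM. The 10 forebrain and olfactory markers summed to 31.6, 138 and 98.0 CPM and the 10 neuron markers to 77.1, 322 and 215 CPM. The 10 skeletal muscle markers summed to 130, 252 and 159 CPM. Among the lists without that order were the endothelial markers (481, 341 and 450 CPM) and the facial mesenchyme markers (2430, 2229 and 2900 CPM). The part of these in the claudin values was not tested. Without E12.5 replicate 2, the library with the highest sums, 6 claudins rose and 1 fell at E12.5 against E11.5 and 7 fell at E14.5 against E12.5, Cldn1 alone rising. Cadherin counts without it were 11 risen and 1 fallen at E12.5, and 6 risen and 4 fallen at E14.5.

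**Figure D3:**
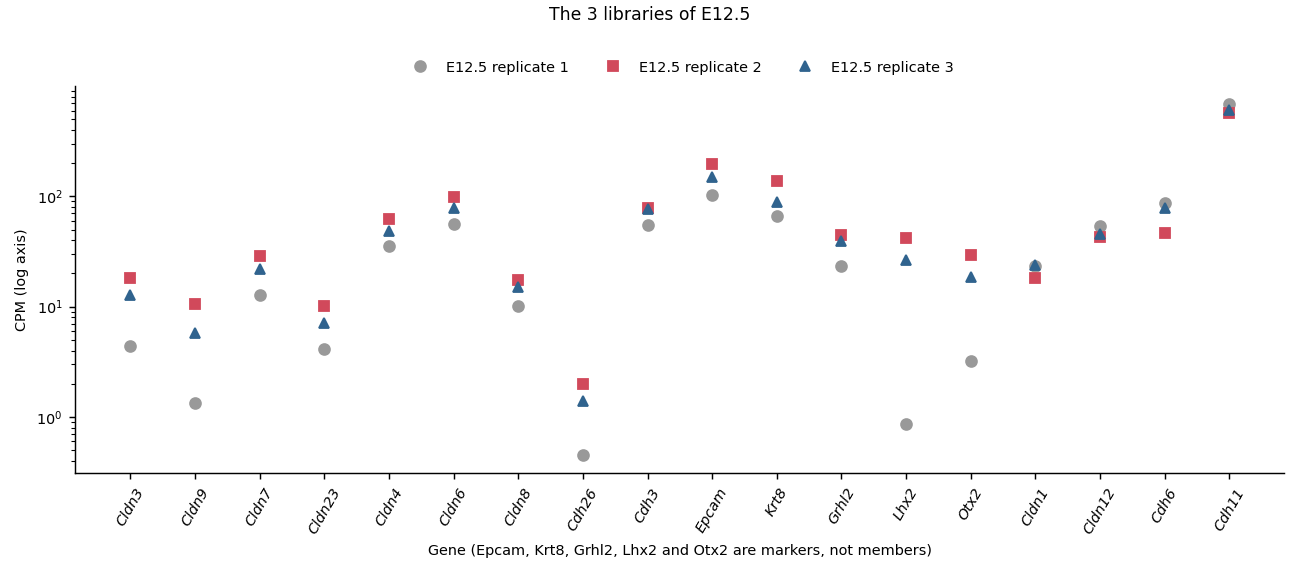
CPM on a log axis in the 3 libraries of E12.5 for claudins and cadherins and for the markers Epcam, Krt8, Grhl2, Lhx2 and Otx2. Replicate 2 is highest and replicate 1 lowest from Cldn3 to Otx2, while Cldn1, Cldn12, Cdh6 and Cdh11 at the right are lowest in replicate 2. The genes are a selection arranged by this order, and members with other orders, such as Cldn2, Cdh2 and Cdh4, are not shown.

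The share of alignments outside genes changed at the same step, and no E11.5 and E12.5 libraries have a like share. With that share as a covariate, 2 members rose at E12.5 against E11.5, Cldn1 (1.11, edgeR adjusted p = 0.0488) and Cdh13 (1.89, edgeR adjusted p = 0.0136), and none fell, and over all genes 407 rose and 286 fell. At the other steps that fit lost 3 of the 16 calls of E11.5 against E10.5 and 0 of the 20 calls of E14.5 against E12.5: at E11.5 against E10.5 9 cadherins rose and 4 claudins fell, and at E14.5 against E12.5 9 claudins fell and 1 rose.

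Type I cadherins had very different courses. Cdh2, N-cadherin, which joins mesenchymal, neural and muscle cells, was not called at any step. Cdh2 had 85.8, 95.9 and 109 CPM at E10.5, 109.9, 115 and 98.3 CPM at E11.5, 128, 107 and 167 CPM at E12.5, and 147, 145 and 133 CPM at E14.5. The E14.5 libraries lay above those of E10.5 on the CPM scale, and neighbouring stages overlapped. The log2 fold change was 0.22 ± 0.12 over the interval (SE, edgeR adjusted p = 0.112) and 0.55 with library totals in place of TMM, which passed (edgeR adjusted p = 0.00327).

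Cdh3, P-cadherin, a cadherin of basal epithelial cells and placodes, had 75.0, 66.8 and 90.1 CPM at E10.5, 72.0, 56.7 and 73.2 CPM at E11.5, 54.9, 78.4 and 76.2 CPM at E12.5, and 45.8, 45.7 and 45.4 CPM at E14.5. All E14.5 libraries were below the lowest of the earlier ones. Cdh3 fell at E14.5 against E12.5 by 0.69 ± 0.126 (SE, edgeR adjusted p = 6.41e-04) and by 1.08 ± 0.126 over the interval (SE, edgeR adjusted p = 4.49e-06). Over the same step 4 of the 12 surface epithelium markers rose and 5 fell. Their part in Cdh3 was not tested.

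Cdh15, M-cadherin, the cadherin of myoblasts and satellite cells, had the largest rise at E14.5 against E12.5 among the members. Cdh15 had 2.25, 2.02 and 2.86 CPM at E10.5, 1.94, 2.11 and 3.74 CPM at E11.5, 8.43, 9.97 and 8.57 CPM at E12.5, and 61.0, 55.3 and 50.6 CPM at E14.5. E12.5 stood above both earlier stages and E14.5 above E12.5, without overlap. The log2 fold change was 1.57 ± 0.203 at E12.5 against E11.5 (SE, edgeR adjusted p = 7.20e-05) and 2.55 ± 0.186 at E14.5 against E12.5 (SE, edgeR adjusted p = 3.86e-07).

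Skeletal muscle markers moved with Cdh15. Their 10 genes summed to 1349 to 1646 CPM at E14.5 and 130 to 252 CPM at E12.5, and all 10 rose at that step. Myod1, the myogenic regulator, had 44.03, 42.8 and 39.5 CPM at E14.5 and 7.79, 11.1 and 11.4 CPM at E12.5. Its part in the Cdh15 values was not tested.

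Cdh4, R-cadherin, known from retina, brain and kidney, had 3.78, 3.34 and 4.36 CPM at E10.5, 8.58, 5.84 and 8.75 CPM at E11.5, 18.1, 19.1 and 30.1 CPM at E12.5, and 35.04, 20.0 and 29.0 CPM at E14.5. The first 3 stages did not overlap, and E14.5 overlapped with E12.5. Cdh4 rose at E11.5 by 0.98 ± 0.229 (SE, edgeR adjusted p = 0.00688) and at E12.5 by 1.31 ± 0.214 (SE, edgeR adjusted p = 3.59e-04), and the last step was 0.25 (edgeR adjusted p = 0.334).

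Among type II cadherins 7 of 11 rose at E11.5 against E10.5 and none fell, where 12.2% of all genes rose and 12.9% fell. Cdh11, the cadherin of mesenchyme and osteoblasts, was the most abundant cadherin per exon length. Cdh11 had 381, 320.0 and 382 CPM at E10.5, 547, 545 and 525 CPM at E11.5, 692, 569 and 604 CPM at E12.5, and 774, 737 and 756 CPM at E14.5. On the CPM scale each stage lay above the one before without overlap. In the fitted model the rise was at the first step, 0.55 ± 0.0987 (SE, edgeR adjusted p = 0.00128), and the values after it were -0.00 at E12.5 (edgeR adjusted p = 0.977) and 0.20 at E14.5 (edgeR adjusted p = 0.110). With library totals the E14.5 change was 0.28 and passed (edgeR adjusted p = 0.0249).

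Osteoblast markers, whose cells are known to make Cdh11, summed to 1936 to 2456 CPM at E14.5 and 179 to 230 CPM at E12.5. The facial mesenchyme markers summed to 5728 to 7413 CPM at E14.5 and 2229 to 2900 CPM at E12.5, although 6 of those 10 fell and 2 rose. Most of the E14.5 sum was Col1a2, a type I collagen chain that osteoblasts make as well, with 6025, 4435 and 4950 CPM at E14.5 and 889, 949 and 1251 CPM at E12.5. The part of either in Cdh11 was not tested.

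Cdh6, K-cadherin, made in kidney and in premigratory neural crest, was the one type II member that fell at E12.5. Cdh6 had 67.8, 52.0 and 63.7 CPM at E10.5, 94.8, 93.0 and 99.003 CPM at E11.5, 87.7, 46.3 and 78.2 CPM at E12.5, and 49.0, 59.9 and 57.2 CPM at E14.5. The E11.5 libraries were above all others. The log2 fold change was 0.61 at E11.5 against E10.5 (edgeR adjusted p = 0.0219), a call lost without any of 5 of the 6 libraries compared (edgeR adjusted p 0.0513 to 0.0644). It was -0.65 at E12.5 against E11.5 (edgeR adjusted p = 0.00877) and -0.43 with library totals (edgeR adjusted p = 0.0629). Over the interval it was -0.47 (edgeR adjusted p = 0.0314), lost without E10.5 replicate 1 or E14.5 replicate 1 or 3 (edgeR adjusted p 0.0726 to 0.129) and with library totals (-0.14, edgeR adjusted p = 0.493).

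Cdh10, a cadherin of the nervous system, rose to a peak at E12.5. Cdh10 had 1.66, 1.61 and 2.01 CPM at E10.5, 5.95, 8.55 and 5.11 CPM at E11.5, 25.3, 16.2 and 19.6 CPM at E12.5, and 8.81, 8.48 and 7.78 CPM at E14.5. The E12.5 libraries stood apart from the other 9. Cdh10 rose by 1.86 ± 0.222 at E11.5 (SE, edgeR adjusted p = 5.38e-05) and by 1.43 ± 0.199 at E12.5 (SE, edgeR adjusted p = 1.18e-04), then fell by 1.37 ± 0.198 at E14.5 (SE, edgeR adjusted p = 1.08e-04). E12.5 replicate 2, with the highest sum of neuron markers, was the lowest of that stage for Cdh10. The part of neurons in the Cdh10 values was not tested.

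Cdh9, next to it on chromosome 15, also peaked at E12.5, with 3.90, 2.15 and 2.77 CPM there against 1.02, 1.47 and 0.935 CPM at E11.5. It had 0.813, 0.378 and 1.19 CPM at E10.5 and 0.590, 0.742 and 0.795 CPM at E14.5, all below E12.5. The fall at E14.5 against E12.5 was -2.12 ± 0.362 (SE, edgeR adjusted p = 3.82e-04). The rise at E12.5, 1.16 (edgeR adjusted p = 0.0141), was lost without E11.5 replicate 1 or 3 or without E12.5 replicate 1 (edgeR adjusted p 0.0526 to 0.0654).

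Cdh8, of developing brain, had 0.907, 1.20 and 1.44 CPM at E10.5, 2.46, 3.13 and 2.68 CPM at E11.5, 6.10, 4.49 and 4.78 CPM at E12.5, and 13.3, 14.3 and 12.9 CPM at E14.5. No stage overlapped with the next. It rose at each step, by 1.19 ± 0.207 (SE, edgeR adjusted p = 9.72e-04), 0.68 ± 0.189 (SE, edgeR adjusted p = 0.00941) and 1.32 ± 0.182 (SE, edgeR adjusted p = 7.67e-05).

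Cdh7, which migrating neural crest cells make in the chick, had 0.313, 0.850 and 0.188 CPM at E10.5, 1.84, 1.98 and 1.81 CPM at E11.5, 1.21, 2.72 and 2.08 CPM at E12.5, and 9.65, 13.1 and 11.02 CPM at E14.5. It climbed in a pair of steps with a plateau between. The rises were 2.00 ± 0.431 at E11.5 (SE, edgeR adjusted p = 0.00422) and 2.42 ± 0.363 at E14.5 (SE, edgeR adjusted p = 1.45e-04), and the change between was -0.12 (edgeR adjusted p = 0.804).

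Cdh12, also of the nervous system, had a stepped course too, with 0.156, 0.220 and 0.157 CPM at E10.5, 0.887, 1.53 and 1.06 CPM at E11.5, 1.12, 1.51 and 1.52 CPM at E12.5, and 2.88, 3.00 and 2.71 CPM at E14.5. E10.5 was below and E14.5 above all other libraries. The rises were 2.64 ± 0.322 at E11.5 (SE, edgeR adjusted p = 6.25e-05) and 0.98 ± 0.248 at E14.5 (SE, edgeR adjusted p = 0.00568).

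Cdh18 began near 0, with 3 counts in 1 of the E10.5 libraries and none in the others. It had 0.263, 1.47 and 0.280 CPM at E11.5, 2.78, 3.24 and 3.20 CPM at E12.5, and 3.99, 5.27 and 4.77 CPM at E14.5. Over the libraries of a stage it had 63 counts at E11.5, a depth-corrected ratio of 21.4 to E10.5 (exact 95% interval 6.99 to 106.5, counting error only), and 426 counts at E14.5, a ratio of 149 (50.7 to 725.8). E11.5 replicate 2 held most of the E11.5 counts. Cdh18 rose at E11.5 (edgeR adjusted p = 0.00482) and at E12.5 against E11.5 (1.98 ± 0.526, SE, edgeR adjusted p = 0.00768).

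Cdh24 had 25.7, 20.6 and 38.1 CPM at E10.5, 29.3, 26.0 and 25.5 CPM at E11.5, 34.3, 36.5 and 40.5 CPM at E12.5, and 33.9, 34.1 and 33.2 CPM at E14.5. It was not called at any step, with log2 fold changes of -0.08, 0.25 and -0.21. Cdh20 and Cdh22, both low, rose over the interval by 1.79 (edgeR adjusted p = 0.00388) and 2.15 (edgeR adjusted p = 2.12e-04). The Cdh20 rise at E12.5, 1.87 (edgeR adjusted p = 0.0109), was lost without E12.5 replicate 3 (edgeR adjusted p = 0.0545). The Cdh22 rise at E14.5, 1.00 (edgeR adjusted p = 0.0299), was lost without E12.5 replicate 1 or 2 or E14.5 replicate 2 or 3 (edgeR adjusted p 0.0526 to 0.160).

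Of the 5 cadherins outside the classical types 4 were tested, and all 4 rose at E12.5 against E11.5, where 27.1% of all genes did. With a covariate for alignments outside genes Cdh13 alone passed. Cdh17, Cdh23 and Cdh26 had changes of 3.98, 1.05 and 1.14 and did not pass (edgeR adjusted p = 0.0732, 0.587 and 0.752). Cdh13, T-cadherin, is held by a lipid anchor in place of a cytoplasmic tail. Cdh13 had 1.28, 1.35 and 1.19 CPM at E10.5, 2.40, 2.78 and 3.08 CPM at E11.5, 9.90, 10.9 and 8.60 CPM at E12.5, and 20.5, 22.3 and 18.5 CPM at E14.5. It rose at each step without overlap, by 1.07 ± 0.183 (SE, edgeR adjusted p = 8.56e-04), 1.62 ± 0.164 (SE, edgeR adjusted p = 1.21e-05) and 0.98 ± 0.152 (SE, edgeR adjusted p = 1.91e-04). The endothelial markers, which belong to a cell type known to make Cdh13, summed to between 258 and 391 CPM at E10.5, between 174 and 212 CPM at E11.5, between 341 and 481 CPM at E12.5 and between 553 and 649 CPM at E14.5. Their part was not tested.

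Cdh23, the upper part of the tip link of hair cells, had 0.0625, 0.126 and 0.314 CPM at E10.5, 0.263, 0.255 and 0.0935 CPM at E11.5, 1.37, 0.705 and 0.989 CPM at E12.5, and 3.71, 3.57 and 3.77 CPM at E14.5. The early stages overlapped and each later one was apart. It rose at E12.5 by 2.10 ± 0.451 (SE, edgeR adjusted p = 0.00209) and at E14.5 by 1.76 ± 0.359 (SE, edgeR adjusted p = 0.00135). Cdh23 holds Vsir on the opposite strand, and reads of the pair could be told apart only by position.

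Cdh17, the cadherin of liver and intestine, had 0.0938, 0.0630 and 0.0314 CPM at E10.5, 0.427, 0.287 and 0.156 CPM at E11.5, 1.34, 0.897 and 1.55 CPM at E12.5, and 1.21, 1.66 and 1.65 CPM at E14.5. It rose at E12.5 by 1.90 ± 0.376 (SE, edgeR adjusted p = 0.00128), and its rise at E11.5 (2.10, edgeR adjusted p = 0.0132) was lost on leaving out E10.5 replicate 3 or, separately, E11.5 replicate 1 (edgeR adjusted p 0.0518 and 0.0634).

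Cdh26, known in human epithelium under inflammation, had 0.0625, 0.126 and 0.157 CPM at E10.5, 0.263, 0.319 and 0.0312 CPM at E11.5, 0.447, 1.99 and 1.38 CPM at E12.5, and 0.833, 0.283 and 0.619 CPM at E14.5. It rose at E12.5 by 2.41 ± 0.641 (SE, edgeR adjusted p = 0.00768), with E12.5 libraries in the order of Epcam. Its interval rise of 1.97 (edgeR adjusted p = 0.0284) was lost without E10.5 replicate 1 or 2 or E14.5 replicate 1 or 3 (edgeR adjusted p 0.0558 to 0.0955).

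**Figure D4:**
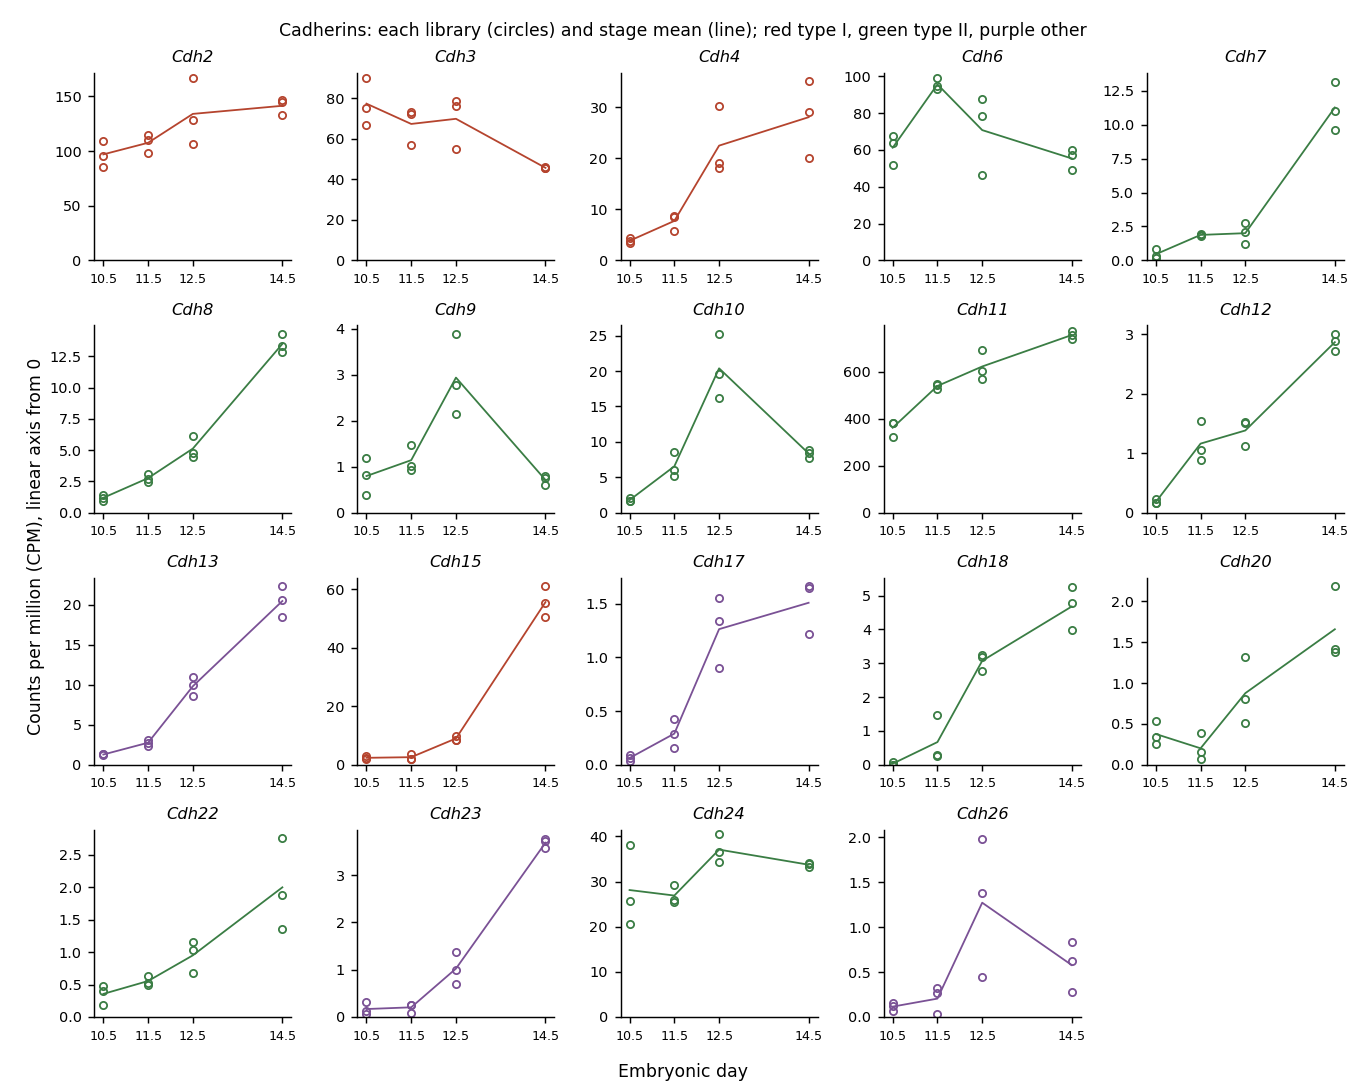
CPM in each of the 12 libraries (circles) and stage mean (line) for the 19 cadherins tested, against embryonic day on linear axes from 0, with type I in red, type II in green and the others in purple. Cdh15 reaches 61.0, 55.3 and 50.6 CPM at E14.5 while Cdh3 reaches 45.8, 45.7 and 45.4 CPM, and Cdh9 and Cdh10 peak at E12.5.

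The 10 members left out by the filter were Cldn14, Cldn15, Cldn16, Cldn17, Cldn18, Cldn19, Cldn20, Cldn22, Cldn24 and Cdh16. The highest value of any of them in a library was 0.565 CPM, for Cldn15 in E10.5 replicate 3. Cldn16, a paracellular magnesium channel of the kidney, Cldn22 and Cldn24 had no count in any of the 12 libraries, which allows a level of up to 0.00803 CPM over them (3 counts of the total over 12 libraries, counting error only). Alignments that fit several places were not assigned to genes, so a gene with a similar copy can be undercounted. Cldn16 lies 91.3 kb from Cldn1 on chromosome 16, and Cldn22 and Cldn24 lie 1.68 kb apart on chromosome 8.

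Levels of different genes were compared as CPM per kilobase of annotated exon. On this scale Cldn6 held 45.6%, 38.1% and 34.0% of the summed level of the 22 claudins at E10.5, E11.5 and E12.5, and 13.6% at E14.5, where Cldn4, Cldn1 and Cldn12 stood above it. Cldn4 held 18.1%, 20.5%, 19.9% and 29.5% at the 4 stages and came first at E14.5. Its share grew there as the claudin sum fell, while its own level was 26.7 CPM per kb at E12.5 and 19.9 at E14.5. Cldn1 held 1.52%, 2.71%, 3.60% and 16.4%, and was second at E14.5. At that stage Cldn1, with 11.2 ± 2.30 CPM per kb, Cldn12, with 9.21 ± 0.126, and Cldn6, with 9.12 ± 0.980 (SD, n = 3 each), did not differ beyond their spread. The summed level of the claudins was 108 ± 12.1 CPM per kb at E10.5, 83.5 ± 7.25 at E11.5, 133 ± 33.8 at E12.5 and 67.5 ± 7.11 at E14.5 (SD, n = 3 each).

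Among the 20 cadherins Cdh11 came first per length at each stage, with 46.6%, 54.1%, 52.3% and 53.5% of the summed level. Cdh3 held 20.1%, 13.7%, 12.0% and 6.57% over the 4 stages. Cdh2 held 13.8%, 11.9%, 12.4% and 11.1%. Cdh15 held 0.833%, 0.716%, 2.09% and 10.8%, and at E14.5, with 17.1 ± 1.61 CPM per kb, it did not differ beyond the spread from Cdh2, with 17.5 ± 0.960 (SD, n = 3 each). The summed cadherin level was 87.3 ± 10.3 CPM per kb at E10.5, 112 ± 2.18 at E11.5, 133 ± 9.31 at E12.5 and 158 ± 3.88 at E14.5 (SD, n = 3 each). These sums have no TMM scaling, and CPM values at later stages sit higher than the fitted changes. In the TMM fit Cdh11, their largest part, was not called at E12.5 (-0.00) or at E14.5 (0.20) against the stage before.

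**Figure D5:**
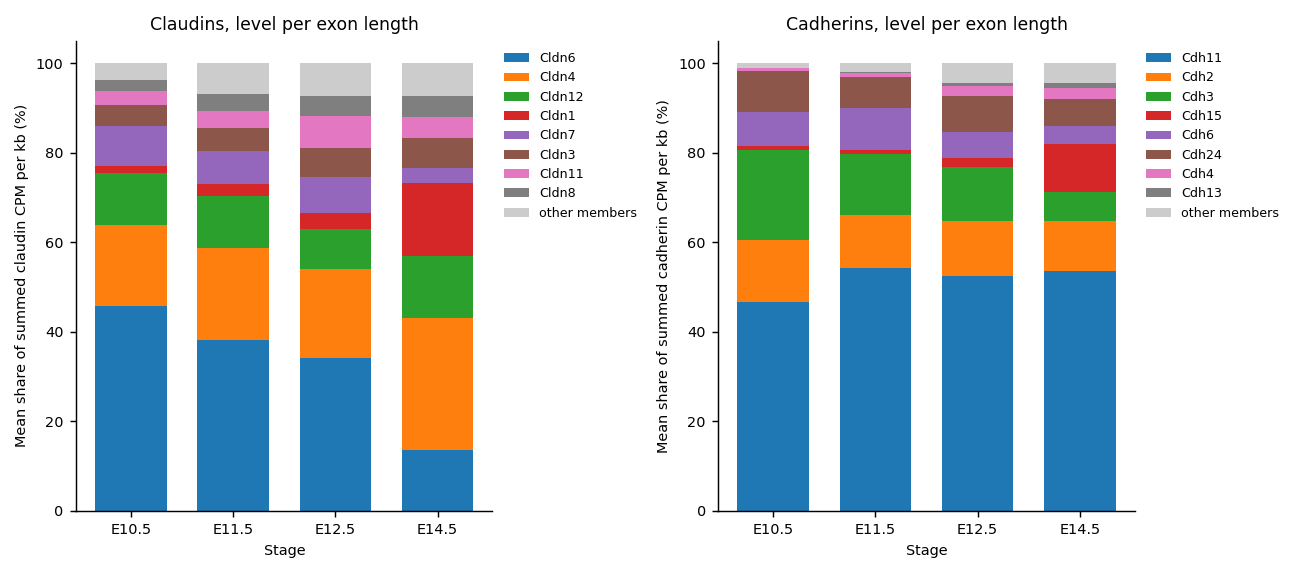
Mean share, in percent, of the summed CPM per kb of exon held by each gene at each stage, for the claudins (left) and the cadherins (right), with the smaller members joined in grey. The Cldn6 block shrinks to 13.6% at E14.5 as those of Cldn4 and Cldn1 grow to 29.5% and 16.4%, and the Cdh15 block grows to 10.8%. The Cldn4 block grows as a share only, since its level was 26.7 CPM per kb at E12.5 and 19.9 at E14.5.

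The partners of claudins in the tight junction were counted in the same fit. Of 24 tight junction genes tested 1 rose and 10 fell at E11.5 against E10.5, 5 rose and 2 fell at E12.5 against E11.5, and 3 rose and 8 fell at E14.5 against E12.5. Over all genes 12.2% rose and 12.9% fell at the first of these steps, 27.1% and 22.2% at the next, and 23.0% and 24.0% at the last. The share of the 24 that rose was below that of all genes at each step. Their median log2 fold changes were -0.34, 0.22 and -0.22. Tjp3, one of the zonula occludens scaffolds that bind claudin tails, fell by 1.09 at E11.5 (edgeR adjusted p = 0.0449) and by 0.95 at E14.5 (edgeR adjusted p = 0.0475). Ocln, occludin, rose by 0.69 at E12.5 (edgeR adjusted p = 0.0368). Cxadr, a junctional immunoglobulin protein, fell by 0.86 at E14.5 (edgeR adjusted p = 1.27e-05). Jam2, a junctional adhesion molecule that endothelium makes as well, rose by 1.46 at E14.5 (edgeR adjusted p = 0.00185), with 28.0, 26.7 and 24.7 CPM at E14.5 and 8.91, 9.33 and 9.20 CPM at E12.5.

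Of 21 adherens junction genes 4 rose and 3 fell at E11.5 against E10.5, 6 rose and 8 fell at E12.5 against E11.5, and 6 rose and 7 fell at E14.5 against E12.5, with medians of -0.12, -0.07 and 0.01. These counts are read against the same 12.2% and 12.9%, 27.1% and 22.2%, and 23.0% and 24.0% of all genes, and the share that rose at E12.5 was near that of all genes. Jup, plakoglobin, which binds classical and desmosomal cadherins, rose by 0.51 at E11.5 (edgeR adjusted p = 0.0185) and by 0.54 at E14.5 (edgeR adjusted p = 0.00638). Nectin4, an epithelial nectin, rose by 1.36 at E11.5 (edgeR adjusted p = 7.55e-05) and by 0.76 at E14.5 (edgeR adjusted p = 0.00160). Ctnnd2, delta-catenin of neurons, rose by 1.03 at E12.5 (edgeR adjusted p = 0.00172) and fell by 1.33 at E14.5 (edgeR adjusted p = 2.57e-04), and Arvcf, another p120-type catenin, fell by 0.81 at E14.5 (edgeR adjusted p = 3.42e-05).

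The 18 transcription and splicing regulators of epithelial genes include the repressors Snai1, Snai2, Zeb1 and Zeb2, so their counts mix factors of opposite action. Of the 18, 8 rose and 1 fell at E11.5 against E10.5, and 5 rose and 4 fell at E12.5 against E11.5. At E14.5 against E12.5 7 rose and 3 fell, and the medians at these steps were 0.60, 0.28 and -0.11. Over all genes 12.2% rose at the first step, 27.1% at the next and 23.0% at the last, while 12.9%, 22.2% and 24.0% fell. At E12.5 the regulators' counts were near those shares. Klf4, which the epidermal barrier needs, rose by 2.91 at E11.5 (edgeR adjusted p = 3.10e-07) and by 1.31 at E14.5 (edgeR adjusted p = 2.37e-05). Grhl1, a grainyhead factor of later epidermis, rose by 2.44 at E14.5 (edgeR adjusted p = 1.72e-04). Elf5, an epithelial ETS factor, rose by 2.40 at E12.5 (edgeR adjusted p = 4.09e-04) and fell by 2.23 at E14.5 (edgeR adjusted p = 4.92e-04), and at E12.5 it had 7.19, 34.0 and 19.1 CPM, in the order of Epcam. Zeb2, whose protein binds CACCTG, had 40.02, 57.4 and 53.2 CPM at E10.5, 136.7, 155.6 and 123.9 CPM at E11.5, 98.7, 77.9 and 107 CPM at E12.5, and 199, 196.6 and 197.6 CPM at E14.5. It rose by 1.43 at E11.5 (edgeR adjusted p = 1.01e-05), fell by 0.77 at E12.5 (edgeR adjusted p = 6.18e-04) and rose by 0.99 at E14.5 (edgeR adjusted p = 7.58e-05). Which cells of the tissue made Zeb2 was not tested.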

How the data were processed

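Libraries were made from Trizol RNA by poly-T selection, per the labels' protocols, with a kit that leaves strand unmarked. The submitters' processing notes name FastQC, STAR 2.7.3a and HTSeq 0.12.4 as tools and mm10 as the build; the annotation release is not given in the sources used here. Deposited values were raw whole-number counts for each Ensembl gene, which the authors followed with 5 closing entries for unassigned alignments; these made up 14.3% to 18.6% of listed alignments and entered neither library sizes nor tests. Symbols, coordinates and exon lengths came from GENCODE M21 (GRCm38), which held 53706 of the 53801 identifiers. There were no molecular identifiers, and intervals and floors reflect counting error alone.

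The analysis used edgeR 4.0.16 in R 4.3.3: filterByExpr with a minimum count of 10 (18365 genes), TMM scaling and quasi-likelihood F-tests, fitting 1 mean per stage over all 12 libraries (8 residual degrees of freedom, biological coefficient of variation 0.142). P-values were adjusted by Benjamini-Hochberg over all tested genes, with a threshold of 0.05. The same code was tested on simulated data. Alternatives used DESeq2 1.42.0, limma 3.58.1 (voom), other scalings and filters, and each library left out in turn. No pair of libraries of a stage agreed within sampling noise (chi-square per degree of freedom at least 4.38). The members, the partner and marker lists and the tests were chosen with earlier results of these data known. Values in each library are printed for members with a stage mean of at least 5 CPM or among the 3 largest changes of a step, and for a few others added after their values were seen, as were the markers Epcam, Lhx2, Otx2 and Col1a2. The 2 partner symbols Mllt4 and Pals1 had no entry of their own in the annotation.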

Additional observations from a re-analysis of the deposited data

How the results depend on the processing

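With a covariate for alignments outside genes, the members that rose at E12.5 against E11.5 numbered 2 in place of 18 and those that fell 0 in place of 2. Over all genes 407 rose and 286 fell in place of 4968 and 4079. Cldn11 was the 1 called member whose estimate changed sign at that step (-0.25, edgeR adjusted p = 0.751). Other estimates were near the main fit (Cdh10 1.40 for 1.43), larger (Cdh17 3.98 for 1.90) or smaller (Cdh9 0.25 for 1.16). No E11.5 and E12.5 libraries have a like share, so this fit separates share from stage poorly, and the cause was not tested. At that step 1 member in place of 2 fell with library totals in place of TMM, a scaling chosen after seeing the data, and 22 rose. All genes shifted the same way, with 6905 risen and 1875 fallen in place of 4968 and 4079. With a change of at least 2-fold also required, 2 members fell at E11.5 against E10.5 in place of 4 and 1 fell at E12.5 against E11.5, since fewer genes can pass. The other settings run (DESeq2 size factors, no filter, the DESeq2 and limma-voom tests, only the 2 stages compared, and the replicate block) kept each count of members within 1.5 times its main value.

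Leaving out each of the 12 libraries in turn gave 8 to 13 members risen and 3 to 5 fallen at E11.5 against E10.5, 15 to 20 and 2 at E12.5 against E11.5, 7 to 8 and 10 to 14 at E14.5 against E12.5, and 14 to 16 and 5 to 7 at E14.5 against E10.5. The joint test gave 28 to 30. Without E10.5 replicate 3, whose share outside genes was 4.88%, 8 cadherins and no claudin rose at E11.5 against E10.5. The same counts came without E11.5 replicate 1. No claudin rose either without E10.5 replicate 1, E10.5 replicate 2 or E11.5 replicate 2 in turn. Samples with the same replicate number deviated together weakly at most. Their 18 pairs had correlations of -0.12 to 0.18, with 4 over 0.1, and other pairs -0.23 to 0.23. Those 4 were all between libraries of E10.5, E11.5 and E12.5 (0.12 to 0.18), and no same-numbered pair with E14.5 was over 0.1. With the replicate number as a block 13 members in place of 12 fell at E14.5 against E12.5, the other counts were 12, 4, 18, 2, 8, 15 and 6 as without it, and no call was lost. With 3 libraries a stage no group was large enough for a search for single stray libraries.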
